A study of Mus musculus with 8 samples.

Results

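The ADAMTS proteases (a disintegrin and metalloproteinase with thrombospondin motifs) of mouse embryonic fibroblasts (MEFs) were examined. The set held 8 protease genes and the gene of versican, a substrate of several of these proteases. Adamts1 and Adamts5 were chosen because they are neighbours that are duplicated together in Dp1Tyb, and Adamts2, Adamts4, Adamts7, Adamts9, Adamts12, Adamts15 and Vcan as relatives or substrate on other chromosomes. All 9 genes had a row in the count table, of 19493 endogenous genes in all, and all 9 were among the 16470 genes tested. Poly(A) RNA was measured by stranded RNA sequencing in 4 wild-type (WT) and 4 Dp1Tyb cultures derived from E14.5 embryos, with the strain background labelled C57BL/6J.129P2 in both groups and mice backcrossed to C57BL/6JNimr. The Dp1Tyb cells carry Dp(16Lipi-Zbtb21)1TybEmcf, a duplication on chromosome 16 from Lipi to Zbtb21 that serves as a model of Down syndrome, so that Adamts1 and Adamts5 are present in 3 copies against 2 in WT. The WT cells carry no allele of the duplication, and no other agent distinguished the groups. The cells came from embryos stripped of head and viscera, were passaged in culture and were detached with trypsin before lysis, so that each library is the RNA of an unsorted culture. The study's MEFs were derived from littermate embryos of both genotypes, but the sources do not say which embryo gave each of these cultures, so p-values measure the spread between the cultures, which may in part be technical.

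ADAMTS proteases are secreted zinc enzymes that cut proteins of the extracellular matrix. ADAMTS1, ADAMTS4, ADAMTS5, ADAMTS9 and ADAMTS15 cut versican and related proteoglycans, which hold water in embryonic and connective tissue. ADAMTS2 removes the amino-terminal propeptide of fibrillar procollagens, and ADAMTS7 and ADAMTS12 bind and degrade cartilage oligomeric matrix protein. The enzymes differ in which matrix proteins they cut, and all bind zinc through 3 histidines of a short stretch of their catalytic domain.

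The coding sequence of that zinc-binding stretch is shown because it holds the zinc-binding histidines common to the 8 proteases and because the duplicated pair differs within it. Each line gives 33 bases, 5′ to 3′ on the coding strand, read from the GRCm38 genome along a GENCODE M21 transcript, with the codons of the 3 histidines in capitals. In each gene an intron splits the 33 bases, and the coordinates run from the outer end of the first exonic stretch to that of the second.
Adamts1, chr16:85799191-85799545, minus strand, exons 3 and 4 of 9: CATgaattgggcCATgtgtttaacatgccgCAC
Adamts5, chr16:85878015-85887826, minus strand, exons 2 and 3 of 8: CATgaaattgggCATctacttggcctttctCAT
Adamts4, chr1:171253210-171253915, plus strand, exons 3 and 4 of 9: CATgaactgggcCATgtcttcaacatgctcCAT
Adamts9, chr6:92905285-92908493, minus strand, exons 8 and 9 of 40: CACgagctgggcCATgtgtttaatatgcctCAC
Adamts15, chr9:30911255-30911690, minus strand, exons 2 and 3 of 8: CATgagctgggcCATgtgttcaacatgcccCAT
Adamts2, chr11:50775403-50776134, plus strand, exons 7 and 8 of 22: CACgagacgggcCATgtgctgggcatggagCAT
Adamts7, chr9:90179456-90180640, plus strand, exons 7 and 8 of 24: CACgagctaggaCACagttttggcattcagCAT
Adamts12, chr15:11241529-11255564, plus strand, exons 7 and 8 of 24: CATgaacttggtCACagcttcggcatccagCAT

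Although the pair lies side by side in the genome, Adamts5 shared 20 of the 33 bases and 5 of 11 encoded residues with Adamts1. Adamts9 and Adamts15 shared 28 bases each and all 11 residues with Adamts1, and Adamts4 shared 27 bases and 10 residues. Adamts2, Adamts12 and Adamts7 shared 22, 20 and 19 bases with Adamts1, and 7 residues each. The eighth codon encodes asparagine in Adamts1, Adamts4, Adamts9 and Adamts15 and glycine in Adamts5, Adamts2, Adamts7 and Adamts12. The intron falls after base 10 in Adamts1, Adamts5, Adamts4 and Adamts15, and after base 17 in the others. For the substrate, the codons around the bond of versican cut by the versican-cutting proteases named above are shown. Those of glutamate and alanine on both sides of the bond are in capitals. The stretch lies in exon 8 of 15 on the minus strand and was found at 1 place of the coding sequence.
Vcan, chr13:89693218-89693238: gacccggaagctgcaGAAGCT

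The libraries held 17698900 to 26471758 counts, of which spike-ins took 0.882% to 1.65%. Counts were scaled to the spike-ins and, separately, to the endogenous genes. Spike-in scaling sets the synthetic ERCC RNAs, added in a fixed amount per cell, to the same level and so compares RNA per cell, while relative scaling sets the endogenous genes as a whole to the same level. Endogenous RNA per spike-in ran from 0.713 to 1.19 in WT and from 0.688 to 1.31 in Dp1Tyb, a spread that enters every value under spike-in scaling. All tested genes together had a median log2 fold change of 0.11 by spike-in scaling and 0.0061 by relative scaling.

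Both duplicated proteases were higher on average in Dp1Tyb, by 1.73-fold for Adamts1 and 1.71-fold for Adamts5 under spike-in scaling, but neither passed an adjusted p of 0.05. Adamts1 (ENSMUSG00000022893), which encodes a protease that cuts versican in the ovulating ovary and other tissues, lies at chr16:85793827-85803113 on the minus strand. Its normalised read counts under spike-in scaling were 10769.6, 6080.1, 4746 and 6767 across WT replicates 1 to 4, and 17534, 7788, 11205 and 12584 across Dp1Tyb replicates 1 to 4. In 3 of the 4 Dp1Tyb libraries Adamts1 was above every WT library, and the remaining library, Dp1Tyb replicate 2, lay within the WT range. The means were 7091 ± 2592 and 12278 ± 4042 (SD, n = 4), and the log2 fold change was 0.79 (SE 0.32, edgeR adjusted p = 1.00). Under relative scaling the counts were 9078, 6889.6, 6654 and 5787 in WT and 14558, 11327, 10646 and 9577 in Dp1Tyb. All 4 Dp1Tyb libraries then lay above all 4 WT libraries, and the log2 fold change was 0.70 (SE 0.17, edgeR adjusted p = 0.561). DESeq2 with its own factors gave 0.70 (SE 0.19, adjusted p = 0.0579), and called 53 of the 16470 genes where edgeR called 3. Without Dp1Tyb replicate 1, the highest library, the log2 fold change was 0.58 under spike-in scaling (edgeR adjusted p = 1.00) and 0.57 under relative scaling (edgeR adjusted p = 0.565). Adamts1 missed an unadjusted p of 0.05 under spike-in scaling without Dp1Tyb replicate 1, WT replicate 2 or WT replicate 3, and passed it under relative scaling whichever library was left out.

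Adamts5 (ENSMUSG00000022894) encodes the main protease that cuts aggrecan in mouse cartilage and lies at chr16:85856173-85901828 on the minus strand, 53059 bp from Adamts1. Under spike-in scaling its normalised read counts were 3921, 3498, 1579 and 2031 across WT replicates 1 to 4 and 4434, 4166, 5629.9 and 4665 across Dp1Tyb replicates 1 to 4. The groups did not overlap, with means of 2758 ± 1128 and 4724 ± 638 (SD, n = 4). The log2 fold change was 0.78 (SE 0.32, edgeR adjusted p = 1.00). Under relative scaling the counts were 3305, 3964, 2215 and 1737 in WT and 3682, 6059, 5349 and 3550.0 in Dp1Tyb. The groups then overlapped, because WT replicate 2 exceeded Dp1Tyb replicates 1 and 4, and the log2 fold change was 0.73 (SE 0.27, edgeR adjusted p = 0.999). In each scaling Adamts5 missed an unadjusted p of 0.05 without WT replicate 3, WT replicate 4 or Dp1Tyb replicate 3, and under relative scaling also without Dp1Tyb replicate 2.

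**Figure D1:**
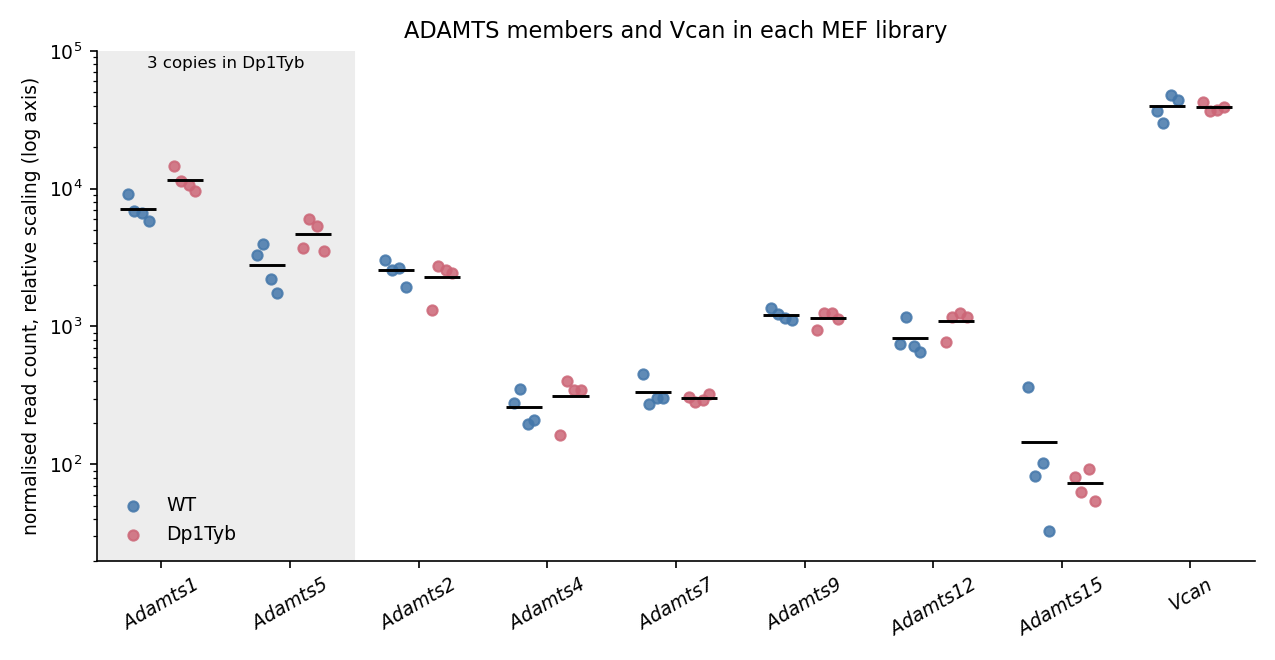
Normalised read counts (relative scaling, log axis) of the 9 genes, with 1 point per library, 4 WT and 4 Dp1Tyb, and a bar at each group mean. The Adamts1 points of Dp1Tyb lie above all WT points, those of Adamts5 overlap, and the WT points of Adamts15 are the most spread.

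Of the 9 genes, 0 were called at an adjusted p under 0.05 in either scaling by the quasi-likelihood test of edgeR, and 0 by DESeq2. Over all tested genes, spike-in scaling called 0.0121% and relative scaling 0.0182%. At an unadjusted p under 0.05, Adamts1 and Adamts5 were higher in Dp1Tyb in both scalings, against 0.85% (spike-in) and 1.74% (relative) of all tested genes. Among the 112 tested genes of the duplicated region, 49 (spike-in) and 60 (relative) were higher at that threshold. At the same threshold Adamts15 was lower under spike-in scaling only, against 0.316% of all tested genes, and no member was lower under relative scaling, against 2.53%. Every Dp1Tyb library lay above every WT library for 1 member in each scaling, Adamts5 under spike-in scaling (0.285% of all tested genes) and Adamts1 under relative scaling (1.64%). The same held for 16 (spike-in) and 47 (relative) of the 112 genes of the duplicated region. That a scaling changed which of the pair did not overlap was not itself tested.

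**Figure D2:**
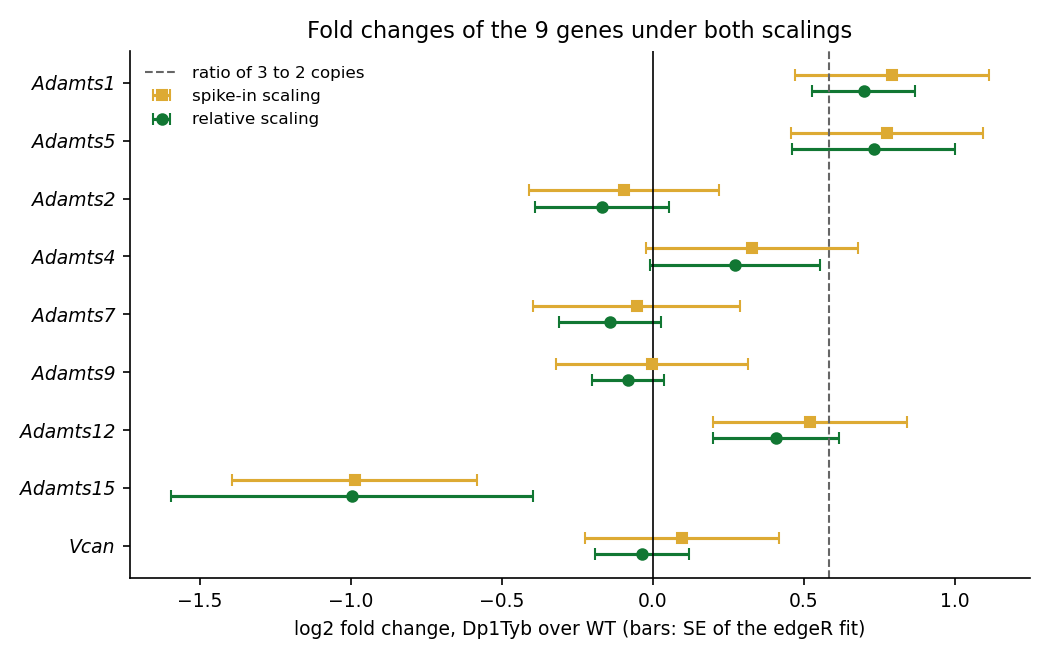
Log2 fold changes of the 9 genes (x axis, Dp1Tyb over WT) under spike-in scaling (squares) and relative scaling (circles), with bars for the SE of the edgeR fit and a dashed line at the ratio of 3 to 2 copies. Adamts1 and Adamts5 lie to the right of the dashed line in both scalings, within 1 SE of it, and Adamts15 has the widest bar under relative scaling.

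The pair was next compared with the ratio of 3 to 2 copies, that is, with a fold change of 1.5. Under relative scaling Adamts1 lay 0.11 (SE 0.17) and Adamts5 0.15 (SE 0.27) above that ratio on the log2 scale (edgeR adjusted p = 0.540 and adjusted p = 0.615). Under spike-in scaling the departures were 0.21 (SE 0.32) for Adamts1 and 0.19 (SE 0.32) for Adamts5 (edgeR adjusted p = 0.574 and adjusted p = 0.598).

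The balance between the neighbours was examined as the ratio of Adamts1 to Adamts5 reads per kb of exon within a library, in which the scaling cancels. Adamts1 exceeded Adamts5 in all 8 libraries, by 5.59, 3.54, 6.11 and 6.78 times across WT replicates 1 to 4 and by 8.05, 3.80, 4.05 and 5.49 times across Dp1Tyb replicates 1 to 4. The groups overlapped, and both the highest ratio and the second lowest were from Dp1Tyb cultures. The log2 ratio averaged 2.42 ± 0.41 in WT and 2.35 ± 0.49 in Dp1Tyb (SD, n = 4), a difference of −0.07 (two-sided exact permutation test, p = 0.857, where the smallest possible p is 0.0286). Leaving out single libraries moved that difference between −0.29 and 0.07.

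The genes around the pair give the setting of the fold changes. Of 7 other genes with counts that lie within 1 Mb of the pair, 6 were tested, and 6 of 6 had a positive log2 fold change in both scalings, with a median of 0.71 under spike-in and 0.61 under relative scaling. The 112 tested genes of the duplicated region had medians of 0.64 and 0.54, and 107 and 101 of them had a positive fold change. Of all 16470 tested genes, 11598 had a positive fold change under spike-in and 8430 under relative scaling. Ranked from the highest fold change under relative scaling, Adamts5 was at 21 and Adamts1 at 32 of the 112 genes, and under spike-in scaling the order turned, with Adamts1 at 31 and Adamts5 at 36. App, which encodes the amyloid precursor protein, had the smallest SE of these neighbours under relative scaling. Its log2 fold change was 0.71 (SE 0.10, edgeR adjusted p = 0.0903) under relative scaling and 0.81 (SE 0.32, adjusted p = 1.00) under spike-in scaling. Gabpa, an ETS family transcription factor, was at 0.61 (SE 0.12, edgeR adjusted p = 0.331), and Atp5j, a subunit of the mitochondrial ATP synthase, at 0.66 (SE 0.14, edgeR adjusted p = 0.348) under relative scaling. For these 3 genes every Dp1Tyb library lay above every WT library under relative scaling, as for 47 of the 112 genes of the duplicated region and 1.64% of all tested genes. The junctional adhesion gene Jam2 was at 0.61 (SE 0.32) and ran from 604 in WT replicate 2 to 2146 normalised counts in Dp1Tyb replicate 1, with overlapping groups. The low genes Cyyr1 and Gm27295, with 11 to 59 and 9 to 28 counts per library, were at 0.21 (SE 0.48) and 0.12 (SE 0.33), and Gm2541, with 4 to 19 counts, was not tested.

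**Figure D3:**
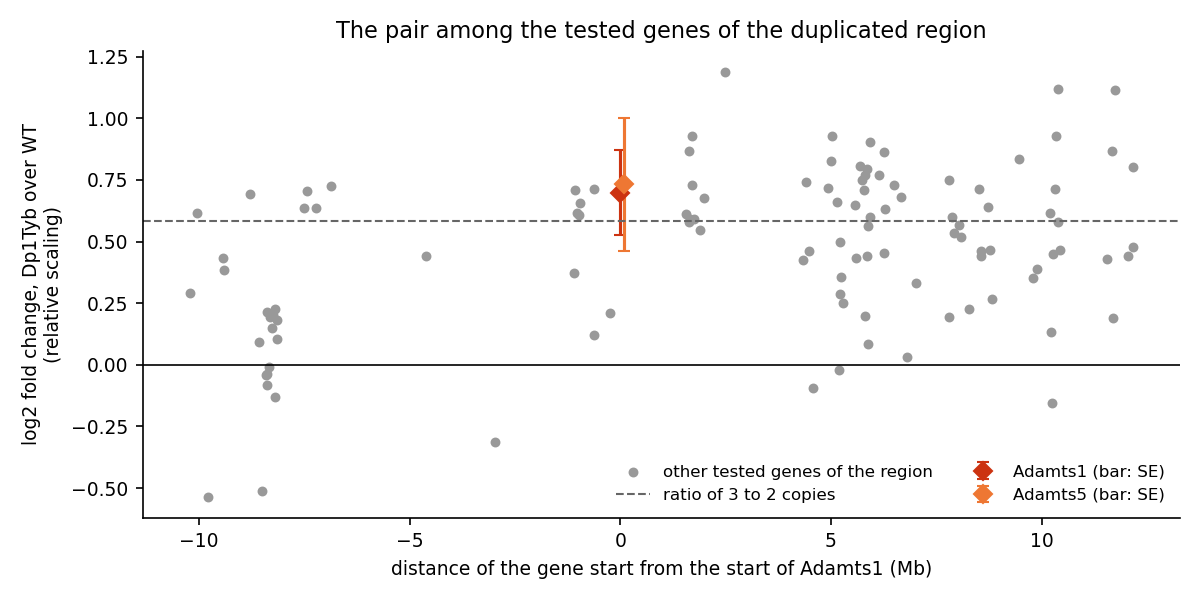
Log2 fold change (relative scaling) of the 112 tested genes of the duplicated region (y axis) against the distance of each gene's start from that of Adamts1 in Mb (x axis), with bars for the SE of the pair and a dashed line at the ratio of 3 to 2 copies. Adamts1 and Adamts5 lie close together at 0.70 and 0.73, among neighbours of which App, Gabpa and Atp5j are at 0.61 to 0.71.

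The substrate Vcan (ENSMUSG00000021614, chr13:89655312-89742509, minus strand), the large hyaluronan-binding proteoglycan, was the most abundant of the 9 genes and was nearly level between the genotypes. Under relative scaling it had 36656, 30149, 48126 and 44145 normalised reads across WT replicates 1 to 4 and 42370.5, 36474, 36968 and 39383 across Dp1Tyb replicates 1 to 4. All 4 Dp1Tyb libraries lay within the WT range. The log2 fold change was −0.04 (SE 0.16, edgeR adjusted p = 0.999), and under spike-in scaling it turned to 0.10 (SE 0.32, edgeR adjusted p = 1.00). The antisense gene Gm4117, with 11363 counts in all, overlaps Vcan, and the strand setting of the authors' counting is not given in the sources used here.

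Of the versican-cutting relatives outside the duplication, Adamts9 was the most even of the 9 genes. Adamts9 (ENSMUSG00000030022, chr6:92772699-92943492, minus strand) encodes a long protease needed in heart and palate development. Its counts under relative scaling were 1354, 1224, 1146 and 1118 across WT replicates 1 to 4 and 943, 1248, 1249 and 1139 across Dp1Tyb replicates 1 to 4, so that the highest library was 1.44 times the lowest. On the log2 scale Dp1Tyb minus WT was −0.08 (SE 0.12, edgeR adjusted p = 0.999) under relative and −0.0019 (SE 0.32, edgeR adjusted p = 1.00) under spike-in scaling. Of 14948 windows of 100 bases in its exons, 8.89% also occur in the exons of the overlapping genes A730049H05Rik and Gm15737, where reads could be assigned to either gene.

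Adamts4 (ENSMUSG00000006403, chr1:171250421-171260637, plus strand), which encodes the other well known aggrecan-cutting enzyme, had 297, 391, 196 and 205 reads across WT replicates 1 to 4 and 201, 330, 332 and 284 across Dp1Tyb replicates 1 to 4. Under relative scaling Dp1Tyb replicate 1 was the lowest library at 164 and Dp1Tyb replicate 2 the highest at 401, so the Dp1Tyb group spanned the whole WT range. Dp1Tyb over WT gave a log2 fold change of 0.27 (SE 0.28, edgeR adjusted p = 0.999) under relative and 0.33 (SE 0.35, edgeR adjusted p = 1.00) under spike-in scaling. Under relative scaling it was 0.49 without Dp1Tyb replicate 1, where it passed an unadjusted p of 0.05, and 0.13 without Dp1Tyb replicate 2, and leaving out each library gave 0.12 to 0.52 under spike-in scaling.

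Adamts15 (ENSMUSG00000033453, chr9:30899155-30922452, minus strand) was the lowest and the most variable member. It had 388, 92, 103 and 32 reads across WT replicates 1 to 4 and 100, 52, 89 and 45 across Dp1Tyb replicates 1 to 4. WT replicate 1 stood far above the others, and the 4 Dp1Tyb libraries lay within the range of the remaining WT libraries in these counts. The log2 fold change of −0.99 (SE 0.41, edgeR adjusted p = 1.00) by spike-in scaling and −0.995 (SE 0.60, edgeR adjusted p = 0.999) under relative scaling rested on that library. Without WT replicate 1 it was 0.33 (edgeR adjusted p = 0.958) and 0.013 (edgeR adjusted p = 0.999), respectively.

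The procollagen-processing protease Adamts2 (ENSMUSG00000036545, chr11:50602084-50807573, plus strand) had 3026, 2567, 2659 and 1935 normalised reads under relative scaling across WT replicates 1 to 4 and 1320.3, 2749, 2558 and 2442 across Dp1Tyb replicates 1 to 4. Dp1Tyb replicate 1 lay below every other library, and the remaining Dp1Tyb libraries were within the WT range. On the log2 scale Dp1Tyb minus WT was −0.17 (SE 0.22, edgeR adjusted p = 0.999) under relative and −0.09 (SE 0.32, edgeR adjusted p = 1.00) under spike-in scaling. Without Dp1Tyb replicate 1 it was 0.021 and 0.06, respectively. Overlapping genes on the other strand had 94 to 367 counts in all.

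Adamts7 (ENSMUSG00000032363, chr9:90163069-90208071, plus strand), whose product acts on cartilage oligomeric matrix protein, had 453, 273, 301 and 303 normalised reads under relative scaling across WT replicates 1 to 4 and 308, 282, 292 and 326 across Dp1Tyb replicates 1 to 4. The Dp1Tyb libraries varied by a coefficient of variation of 6.36% and lay within the WT range, whose top was WT replicate 1. On the log2 scale Dp1Tyb minus WT was −0.14 (SE 0.17, edgeR adjusted p = 0.999) under relative and −0.05 (SE 0.34, edgeR adjusted p = 1.00) under spike-in scaling. Its end overlaps the opposite-strand gene Tbc1d2b, with 0.385% of 100-base windows in common. Adamts12 (ENSMUSG00000047497, chr15:11064790-11349231, plus strand), its closest relative in the family, had 742, 1169, 716 and 656 normalised reads across WT replicates 1 to 4 and 776, 1180.4, 1243 and 1164 across Dp1Tyb replicates 1 to 4. In these counts, under relative scaling, the libraries fell on both sides of a gap. WT replicate 2 was among the high Dp1Tyb libraries and Dp1Tyb replicate 1 among the low WT libraries. Under spike-in scaling WT replicate 1 (880) and Dp1Tyb replicate 1 (934) lay between Dp1Tyb replicate 2 (812) and WT replicate 2 (1032). The log2 fold change of Adamts12 was 0.41 (SE 0.21, edgeR adjusted p = 0.999) under relative and 0.52 (SE 0.32, edgeR adjusted p = 1.00) under spike-in scaling. Without WT replicate 2 it was 0.64 (edgeR adjusted p = 0.654) under relative scaling. It then passed an unadjusted p of 0.05, as it did without Dp1Tyb replicate 1 under relative scaling and without Dp1Tyb replicate 2 under spike-in scaling. No 100-base window of Adamts1, Adamts5, Adamts2, Adamts12, Adamts15 or Vcan occurred in the exons of another gene.

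The 7 members outside the duplication had a median log2 fold change of −0.0019 under spike-in and −0.08 under relative scaling, where all tested genes had 0.11 and 0.0061. Of these 7 genes, 2 were positive and 5 negative under relative scaling, and 3 and 4 under spike-in scaling.

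Levels were compared between genes as RPKM, that is, reads per kb of exon scaled to library size, under relative scaling. Adamts1 was the most abundant protease of the family, at 63.6 ± 12.5 RPKM in WT and 103 ± 19.2 in Dp1Tyb (SD, n = 4), and its 8 libraries did not overlap with those of any other family gene. Adamts5 followed at 12.3 ± 4.46 in WT and 20.5 ± 5.46 in Dp1Tyb, and Adamts2 at 13.0 ± 2.31 and 11.5 ± 3.28, so that Adamts2 had the higher mean of these 2 genes in WT and Adamts5 in Dp1Tyb and over all libraries. In the mean over all libraries the order of the next genes was Adamts6 (5.76 RPKM), Adamts10 (4.60), Adamts12 (4.16), Adamts9 (3.72), Adamts4 (2.82), Adamts7 (2.40), Adamts14 (1.84), Adamts3 (0.960) and Adamts15 (0.501). From Adamts5 down to Adamts16 the range of each gene over the 8 libraries overlapped with that of the next in this order. Within libraries, Adamts2 exceeded Adamts6 and Adamts14 exceeded Adamts3 every time. For the other neighbours from Adamts5 to Adamts16 the order did not hold in every library. Adamts8, Adamts20, Adamts17 and Adamts16 were at 0.195 to 0.313 RPKM. Adamts18 and Adamts19, with at most 16 and 9 counts in a library, were not tested. Vcan had 129 RPKM. The pair together made up 67.1%, 62.6%, 65.7% and 65.1% of the summed RPKM of the 18 family genes across WT replicates 1 to 4, and 83.6%, 74.1%, 73.1% and 71.0% across Dp1Tyb replicates 1 to 4. This share was higher in every Dp1Tyb library than in every WT library, and it is given as a description, since the pair was chosen for its copy number.

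**Figure D4:**
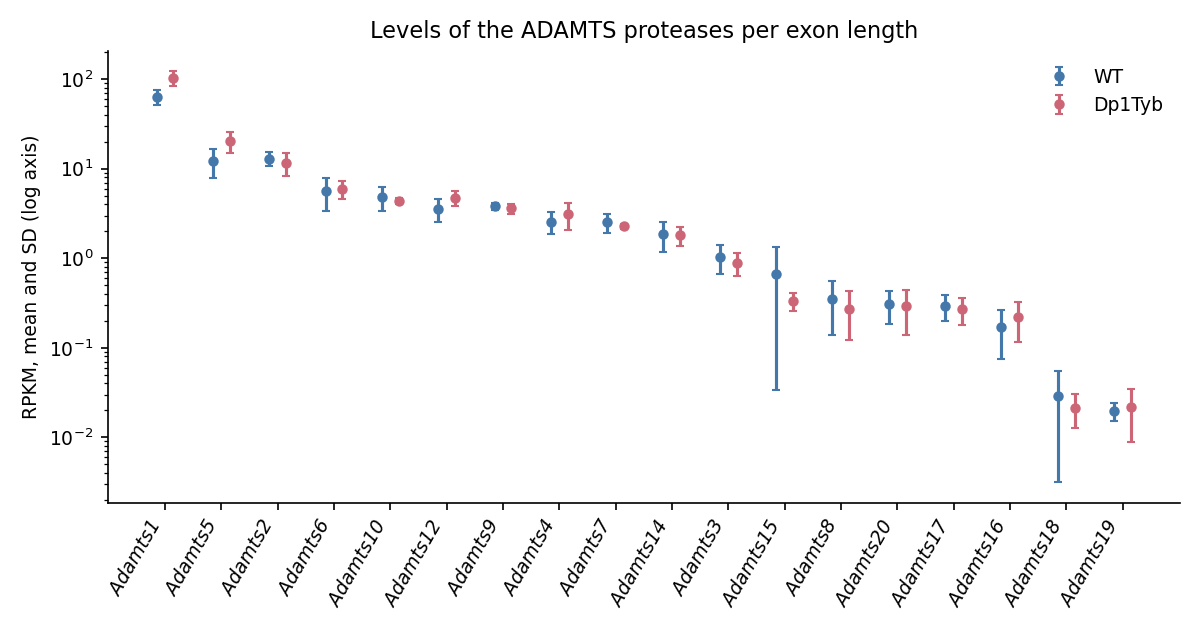
RPKM (log axis, relative scaling) of the 18 ADAMTS protease genes with counts, in the order of their mean over all libraries, as mean and SD of 4 WT and 4 Dp1Tyb libraries. Adamts1 stands apart at the top, and the lower WT bar of Adamts15, whose SD of 0.684 exceeds its mean of 0.668, is shortened to fit the log axis.

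The other genes of the system were described by lists. Of 10 other ADAMTS protease genes with counts 8 were tested, 0 passed an adjusted or unadjusted p of 0.05 in either scaling by edgeR, and the median log2 fold change was −0.10 under relative scaling. The highest of these, Adamts6, Adamts10 and Adamts14, were at 0.07 (SE 0.26), −0.15 (SE 0.19) and −0.04 (SE 0.28). The 7 ADAMTS-like genes, which encode relatives without a protease domain, had a median of −0.12, with 0 of 7 past an unadjusted p of 0.05. Adamtsl5, Adamtsl3 and Adamtsl4, the highest of them, were at 0.0086 (SE 0.14), 0.16 (SE 0.20) and −0.46 (SE 0.22). Of the proteoglycans related to versican and their binding partners, 13 were tested, with a median of −0.06 and 0 past an unadjusted p of 0.05. The matrix glycoproteins Tnc and Fbln2 and the hyaluronan receptor Cd44 were the highest of these, at 0.13 (SE 0.37), 0.19 (SE 0.13) and 0.06 (SE 0.31).

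The 7 genes of fibrillar procollagens and their processing, which include the substrates of ADAMTS2 and the genes of carboxy propeptide removal Bmp1 and Pcolce, had log2 fold changes from 0.05 to 0.17 under relative scaling, and 0 of 7 passed an unadjusted p of 0.05. Col1a1, Col1a2 and Col3a1 were at 0.17 (SE 0.32), 0.13 (SE 0.25) and 0.12 (SE 0.26). Of 10 genes for inhibitors, activating convertases and receptors, with a median of 0.15, 0 passed an unadjusted p of 0.05 and 6 were positive under relative scaling against 9 under spike-in scaling. Fn1, Timp1 and Timp2, the highest of these, were at 0.20 (SE 0.14), 0.36 (SE 0.34) and 0.10 (SE 0.35). Among 5 other substrates, Thbs1 and Thbs2 were at 0.26 (SE 0.24) and 0.04 (SE 0.19). Tfpi2, a serine protease inhibitor of the matrix, was the 1 gene of these lists at an unadjusted p under 0.05, and this under spike-in scaling only, where 0.85% of all tested genes were higher at that threshold. It had 741, 1347, 1625 and 2212 reads across WT replicates 1 to 4 and 2661, 1689, 1797 and 2198 across Dp1Tyb replicates 1 to 4, with a log2 fold change of 0.74 (SE 0.32, edgeR adjusted p = 1.00) by spike-in scaling and 0.60 (SE 0.30, edgeR adjusted p = 0.999) under relative scaling.

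Cell type markers were summed per library as CPM under relative scaling. In bulk RNA, fewer cells of a type and less RNA per cell cannot be told apart. All 9 fibroblast markers were detected, with sums of 12735 to 21647, while the sums of 5 of 6 endothelial genes (31.8 to 78.9), 7 of 8 chondrocyte genes (64.2 to 151), 4 of 6 skeletal muscle genes (25.99 to 109) and 5 of 5 epithelial genes (4.87 to 20.02) were low. The other genes of these lists were not analysed here. The sums of 5 of 5 smooth muscle genes were 608, 2318, 619 and 809 across WT replicates 1 to 4 and 506, 2804, 1877 and 1444 across Dp1Tyb replicates 1 to 4. The libraries with high sums, WT replicate 2 and Dp1Tyb replicates 2, 3 and 4, were also the 4 highest libraries of Adamts4 and of Adamts12 under relative scaling. Under spike-in scaling they were not, since WT replicate 1 lay above WT replicate 2 and Dp1Tyb replicate 2 for Adamts4. For Adamts12, WT replicate 1 and Dp1Tyb replicate 1 both lay above Dp1Tyb replicate 2 in that scaling. The lowest sum, in Dp1Tyb replicate 1, stood beside the highest Adamts1 library in both scalings and the lowest Adamts4 library under relative scaling. The sums were made under relative scaling only. Under spike-in scaling Adamts4 was lowest in WT replicate 3, as were Acta2 (5814 normalised reads), Tagln (2852) and Smtn (540). Myh11 (16) and Cnn1 (12) were lowest in Dp1Tyb replicate 1 in that scaling. The 3 libraries with the highest sums, Dp1Tyb replicates 2 and 3 and WT replicate 2, were also the 3 highest libraries of Adamts5 under relative scaling, whereas under spike-in scaling these were Dp1Tyb replicates 1, 3 and 4. Among the 4 libraries with low sums, Adamts5 in both scalings was higher in Dp1Tyb replicate 1 and WT replicate 1 than in WT replicates 3 and 4. Of the 5 smooth muscle genes, Acta2 alone passed an unadjusted edgeR p of 0.05 under spike-in scaling. At that threshold 0.85% of all tested genes were higher. Acta2 had a log2 fold change of 0.67 (SE 0.32) under spike-in scaling. It was at 0.66 (SE 0.56) under relative scaling, where it did not pass. The part of these cells in the member values was not tested.

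**Figure D5:**
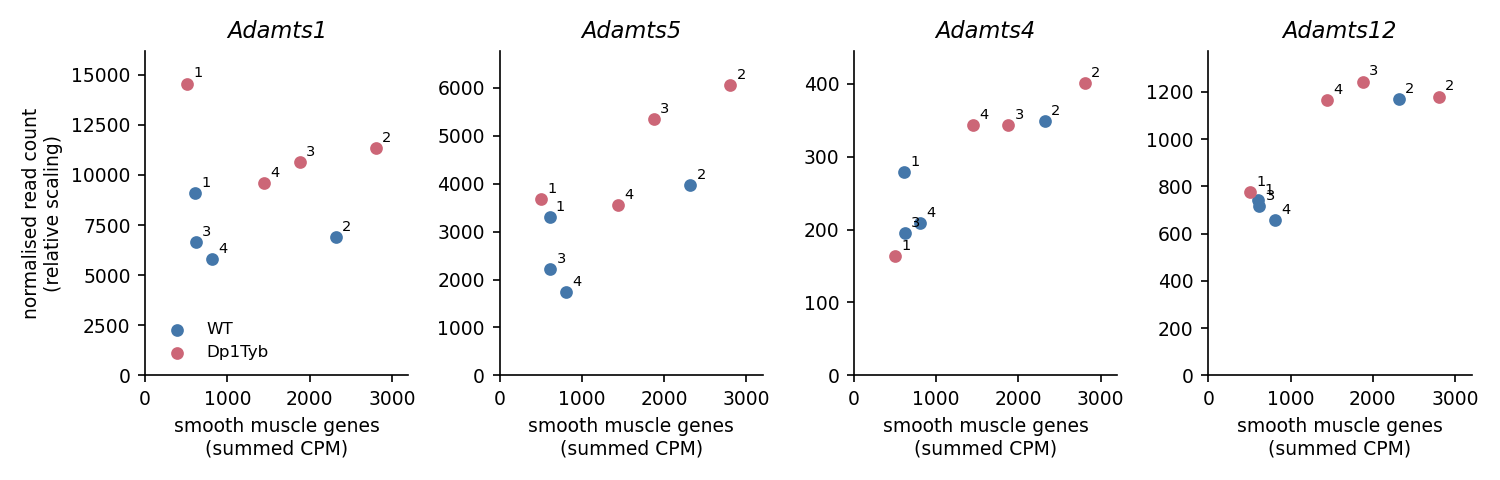
Normalised read counts of Adamts1, Adamts5, Adamts4 and Adamts12 (y axes, relative scaling) against the summed CPM of 5 smooth muscle genes (x axes), with 1 point per library labelled by its replicate number. The 4 libraries above 1400 CPM are the highest of Adamts4 and Adamts12 and include the 3 highest of Adamts5, and the Adamts1 points do not overlap between genotypes.

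Under relative scaling the sums of 6 of 6 macrophage genes were lower in every Dp1Tyb library (57.0 to 91.3) than in every WT library (101 to 128). Ptprc had a log2 fold change of −0.87 in that scaling (SE 0.12, edgeR adjusted p = 0.0903). No sum was made under spike-in scaling. Every Dp1Tyb library then lay below every WT library for 1 of the 6 genes, Ptprc, against 23 of all 16470 tested genes. Cd68, for example, had 1015 normalised reads in Dp1Tyb replicate 1, and 474 and 732 in WT replicates 2 and 3. Under relative scaling 5 of the 6 genes, all but Fcer1g (−0.41), were lower at an unadjusted edgeR p under 0.05, against 2.53% of all tested genes, with Csf1r, Cd68, Adgre1 and Tyrobp at −0.60, −0.63, −0.70 and −0.49. Under spike-in scaling 1 of the 6, Ptprc, passed that threshold, against 0.316%. The direction of this list was opposite to that of the duplicated pair, and its part in the member values was not tested. Of 3 tested skeletal muscle genes, Des alone passed the same unadjusted threshold, under spike-in scaling only, where 0.85% of all tested genes were higher. Des was at 0.78 (SE 0.35, edgeR adjusted p = 1.00) under spike-in and 0.72 (SE 0.63) under relative scaling. Immediate early genes, which respond to handling, summed to 1148 to 2430, with overlapping groups.

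Genes whose log2 CPM followed the pair most closely over the 8 libraries were sought among 11000 genes with a mean of at least 100 counts, as a description of these libraries, which share depth, genotype and culture makeup. For Adamts1 they were Tm2d2 (Pearson r = 0.982 over 8 libraries), the cyclin-dependent kinase inhibitor gene Cdkn2b (0.977) and Xkr8 (0.977), and 45 genes had r above 0.9. For Adamts5 they were the ferroxidase gene Heph (0.993), Pcyox1 (0.985) and the collagen prolyl hydroxylation gene Crtap (0.980), and 65 genes had r above 0.9. All 6 genes lie outside the duplicated region. Their log2 fold changes under relative scaling ran from 0.19 for Pcyox1 to 0.72 for Heph.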

How the data were processed

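Poly(A) RNA of 4 WT and 4 Dp1Tyb MEF cultures was analysed, grouped by the sample labels. The authors added ERCC spike-ins to a fixed number of cells, prepared stranded libraries, trimmed reads with Trim Galore, aligned 100-base pairs to GRCm38 plus spike-ins with TopHat2 2.0.12, discarded reads with several alignments and counted with htseq-count. The annotation release and strand setting are not given in the sources used here. The deposited table holds raw whole-number counts per gene for 19493 genes and 63 spike-ins, with a smallest row sum of 15. Normalised counts and a table of the authors' own fold changes and p-values were not used here.

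Factors came from the median of ratios of the spike-ins (spike-in scaling) or from TMM over endogenous genes (relative scaling). After filterByExpr, 16470 genes were compared with the two-sided quasi-likelihood test of edgeR 4.0.16 (R 4.3.3), with Benjamini-Hochberg adjustment over all of them and a threshold of 0.05. The script was tested on simulated data. For the test against 1.5-fold, that fold was added to the offset. The ratio of the pair used a pseudocount of 0.5 and an exact permutation test over 70 assignments. Positions, exon lengths and sequences came from GENCODE M21 (GRCm38), where 19318 gene IDs matched and 175 did not. Alternatives were DESeq2 1.42.0, other scaling factors and filters, a pseudocount of 5, leaving out each library and a replicate block.

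The members and lists were chosen with earlier results of these data known. Named were all members and neighbours, of each list other than the cell type markers the 3 highest genes by RPKM and the genes with an unadjusted p under 0.05, and the 3 genes most like each of the pair. Lists were described without a set test.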

Additional observations from a re-analysis of the deposited data

Results flagged for a closer look

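In 3 of 38 tested groups of 4 libraries, made of each gene in each scaling and of the Adamts1 to Adamts5 ratio, the library at the end of the range stood apart from the other libraries of its genotype by Dixon's test, where chance gives about 5% of such groups. All 3 were Dp1Tyb replicate 1 with relative scaling. Its log2 CPM was 5.97 for Adamts2, where the nearest Dp1Tyb library was at 6.86. For Adamts4 it was 2.96, against 4.03 in the nearest library. For Adamts12 it was 5.20, against 5.79 in the nearest library. The same library had the highest Adamts1 level and, under relative scaling, the lowest summed smooth muscle genes, as given above. What set it apart was not tested.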

How the results depend on the processing

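Of 290 alternative values, 265 kept the direction and the side of the threshold and 25 changed direction, and no member passed an adjusted p of 0.05 in any of them. Adamts1 and Adamts5 stayed positive in all 14 alternatives of each scaling, Adamts1 between 0.58 and 1.07 with spike-in scaling (edgeR or DESeq2 adjusted p from 0.294 to 1.00) and between 0.57 and 0.84 with relative scaling (0.0535 to 1.00), and Adamts5 between 0.58 and 1.00 (0.246 to 1.00) and between 0.56 and 0.96 (0.233 to 1.00). Leaving out each library in turn changed the direction of small or library-driven differences. With spike-in scaling the log2 fold changes then ran from −0.28 to 0.14 for Adamts2, −0.22 to 0.27 for Adamts7, −0.15 to 0.17 for Adamts9, −1.32 to 0.33 for Adamts15 and −0.051 to 0.29 for Vcan. With relative scaling they ran from −0.28 to 0.021 for Adamts2, −0.21 to 0.0495 for Adamts7, −0.13 to 0.0022 for Adamts9, −1.32 to 0.013 for Adamts15 and −0.14 to 0.0786 for Vcan. The log2 ratio of Adamts1 to Adamts5 differed by −0.29 to 0.0748. Adamts9 with spike-in scaling also turned positive with spike-in totals (0.0017), TMM over spike-ins (0.037) and the replicate block (0.011). The causes were not tested.

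The replicate numbers were not taken as pairing, since same-numbered libraries correlated in their deviations by 0.366, 0.524, 0.0297 and 0.327 and replicate 3 was not closest to its own number. With the replicate block, Adamts1 was at 0.80 (edgeR adjusted p = 0.401) with spike-in and 0.70 (edgeR adjusted p = 0.0535) with relative scaling. Adamts5 was at 0.86 (edgeR adjusted p = 0.246) and 0.77 (edgeR adjusted p = 0.233). The SE of Adamts1 was then 0.25 and 0.083, against 0.32 and 0.17 without the block, and that of Adamts5 0.25 and 0.17, against 0.32 and 0.27. Adamts12 passed an unadjusted edgeR p of 0.05 with the block in both scalings. Over all genes the block gave 9 calls with spike-in scaling against 2, and 7 with relative scaling against 3. DESeq2 with its own factors gave 53 against 3, the filter of 10 counts 0 in both scalings, and leaving out a library 2 to 8 with spike-in and 1 with relative scaling. Adamts18 and Adamts19 had too few counts to pass the filter and were not tested.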
